A study of Mus musculus with 19 samples.

Results

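Hepatocyte genes for plasma proteins and liver metabolism were followed in the leukocyte RNA of B6 and DBA/2 mice after administration of CAWS, the water-soluble fraction of Candida albicans that induces coronary arteritis in mice. The genes were chosen by name, from a list of 51 that the liver is known for. The list was set with earlier results of these data known, so it is not independent of them. Of these, 49 were found on the array by the gene name in the scanner files and 1, Alb, by its accession, because the files call it Alb1. The resulting 50 genes have 67 of the 41174 probes, and 12 of the genes have more than 1 probe. A gene is given by its main probe, the one with the highest mean over the 18 samples. Pck1 was not analysed here.

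The mice were male, 5 to 14 weeks of age, and received 5 intraperitoneal injections of 1 mg CAWS on consecutive days. Time 0 w is right after the last injection, so every group is taken to have received CAWS. No sample is titled as a mouse without it. RNA of leukocytes from whole blood, captured on a LeukoLOCK filter, was hybridized to 1-color Agilent mouse arrays. DBA/2 mice, in which CAWS vasculitis is lethal, were sampled at weeks 0, 2, 4, 8 and 9 with 2 samples each. For DBA/2 2 w replicate 2 a label says technical replicate 2 while the title says replicate 2, and the title was followed. B6 mice, in which the vasculitis is mild, were sampled with 2 samples at weeks 0, 4 and 8 and with 1 sample at 2 w and at 9 w. The study's methods give 3 mice killed per strain and time point, and RNA of individual mice on each array.

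Hepatocytes make most of the proteins of blood plasma: albumin, carriers of vitamins and hormones, apolipoproteins, fibrinogen and protease inhibitors. They also hold the urea cycle, gluconeogenesis and much of the breakdown of amino acids, purines and alcohols. Transcription of these genes in liver rests on a small set of factors, among them HNF1, HNF4, FOXA and C/EBP proteins. Leukocytes do not carry this program as a whole, although some of its genes, such as Arg1, are also used by myeloid cells.

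The promoters of 3 of the genes are shown because the genes moved together in B6 blood and rank among those with the largest changes there (Alb and Fabp1) or were measured on every array (Fgb). Each line gives the 250 bases before the transcription start of the RefSeq gene on GRCm38.p6, 5′ to 3′ on the gene's strand, with motif matches in capitals.
Alb, chr5:90460620-90460869, plus strand: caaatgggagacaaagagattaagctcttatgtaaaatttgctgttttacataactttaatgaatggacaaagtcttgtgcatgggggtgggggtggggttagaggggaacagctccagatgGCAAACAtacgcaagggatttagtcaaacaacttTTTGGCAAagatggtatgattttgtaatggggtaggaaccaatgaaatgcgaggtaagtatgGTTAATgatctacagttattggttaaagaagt
Fabp1, chr6:71199629-71199878, plus strand: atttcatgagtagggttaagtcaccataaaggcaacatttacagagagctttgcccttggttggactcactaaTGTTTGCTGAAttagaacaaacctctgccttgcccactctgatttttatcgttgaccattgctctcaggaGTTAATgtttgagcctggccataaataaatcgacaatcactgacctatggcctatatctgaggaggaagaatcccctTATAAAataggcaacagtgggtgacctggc
Fgb, chr3:83049864-83050113, minus strand: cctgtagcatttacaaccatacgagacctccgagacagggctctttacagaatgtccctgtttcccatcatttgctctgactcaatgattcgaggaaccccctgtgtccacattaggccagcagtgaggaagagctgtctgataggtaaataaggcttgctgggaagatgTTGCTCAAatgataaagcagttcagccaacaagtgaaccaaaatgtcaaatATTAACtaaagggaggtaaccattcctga
The motifs searched on both strands were an HNF1 half-site (GTTAAT), a C/EBP site (TTGCNNAA), a FOXA site (TGTTTGC), an HNF4 site (CAAAGTCC) and the TATA box (TATAAA). In the Alb promoter the HNF1 half-site began at -32 from the start, the C/EBP match at -94 and the FOXA match at -128. In the Fabp1 promoter the FOXA and C/EBP matches overlap, and a TATA box began at -30. The Fgb promoter held a C/EBP match and an HNF1 half-site but no TATA box by these letters. Of the 50 genes, 41 had a promoter in the RefSeq table. The HNF1 half-site was found in 11 of them (26.8%), against 7.49% of the promoters of all 27025 genes. The C/EBP match was found in 16 (39.0%, against 10.8%), the FOXA match in 12 (29.3%, against 4.93%), the TATA box in 13 (31.7%, against 14.3%) and the HNF4 match in 0 (against 1.38%). A match of letters is a description of the window and does not show that a factor binds.

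On each array 33.9% to 51.4% of the spots were well above background by the scanner software, and 1 array, DBA/2 9 w replicate 2, had 1187 outlier spots where the samples on 1 array otherwise had 64 to 180. Markers of blood cells were present in all groups: in each group all 7 T cell markers and all 6 platelet markers were well above background on at least 1 array, and so were 8 of 9 neutrophil markers, or 7 of 9 in B6 mice at 0 w. The 2 replicates of B6 mice were unusually alike. Over 11550 probes the SD of the log2 difference between them was 0.22 to 0.26, while 2 arrays of 1 RNA (B6 0 w replicate 2) differed with an SD of 0.24 and the DBA/2 pairs with 0.32 to 0.41. The model fits 1 spread per probe over all groups. The p-values of comparisons in either strain therefore rest in part on B6 pairs whose spread may be technical. Differences between the DBA/2 replicates enter the same spread. Counts are also given with each B6 pair counted as 1 sample. All arrays of replicate 1 were scanned on 1 day and all of replicate 2 on another, so a block by replicate number is also a block by scan day. The arrays lie on 6 slides. The 2 slides that hold DBA/2 mice at weeks 0, 2, 4 and 8 hold no B6 mouse, so at these weeks strain and slide cannot be told apart. The DBA/2 samples at 9 w lie on slides 3 and 6 and those at 0 w on slides 2 and 5. In DBA/2 mice at 9 w against 0 w, week and slide therefore cannot be told apart.

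Levels below are normalized log2 values, that is, the log2 signal minus the 75th percentile of the array. A probe called well above background is called detected here. The lowest detected signal of an array lay between -7.32 and -4.65. Differences were tested with limma across 22965 probes, and a change is called one with an adjusted p under 0.05. Levels of different probes are not compared with each other. In RNA of mixed cells, fewer cells of a type and less RNA per cell cannot be told apart.

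The hepatocyte genes were detected nearly as a whole in B6 samples taken right after the injections and at 8 w, and in no other group. At 0 w, 50 of the 50 main probes were detected in replicate 1 and 44 on both arrays of replicate 2. At 8 w the numbers were 50 and 46. The B6 sample at 2 w had 21 detected genes, the 2 samples at 4 w had 15 and 16, and the sample at 9 w had 14. DBA/2 samples had 16 to 24 detected genes at every week. The sum of the scaled signals over the 50 genes was 81.7 and 83.2 in B6 mice at 0 w and 52.9 and 53.7 at 8 w, and it was 5.16 at 2 w, 4.35 and 4.38 at 4 w and 3.70 at 9 w. It ranged from 2.77 to 6.80 in DBA/2 mice. The B6 samples at 0 w and 8 w thus lay above all others without overlap, while the sums of the other B6 samples lay within the range of the DBA/2 samples. That range splits by slide. At weeks 0 to 8 the DBA/2 sums were 2.77 to 3.85 in replicate 1 and 5.25 to 6.80 in replicate 2, and at 9 w 3.84 and 3.90. The B6 sums at 2 w and 4 w lay between those of the 2 slides. For 17 genes the main probe was detected in B6 mice at 0 w and 8 w and on no other array, and for 13 of them (Agxt, Apoa1, Apoa2, Apoc3, Hao1, Hpd, Mat1a, Otc, Sds, Serpina1b, Tdo2, Uox and Vtn) on every B6 array of these weeks.

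**Figure D1:**
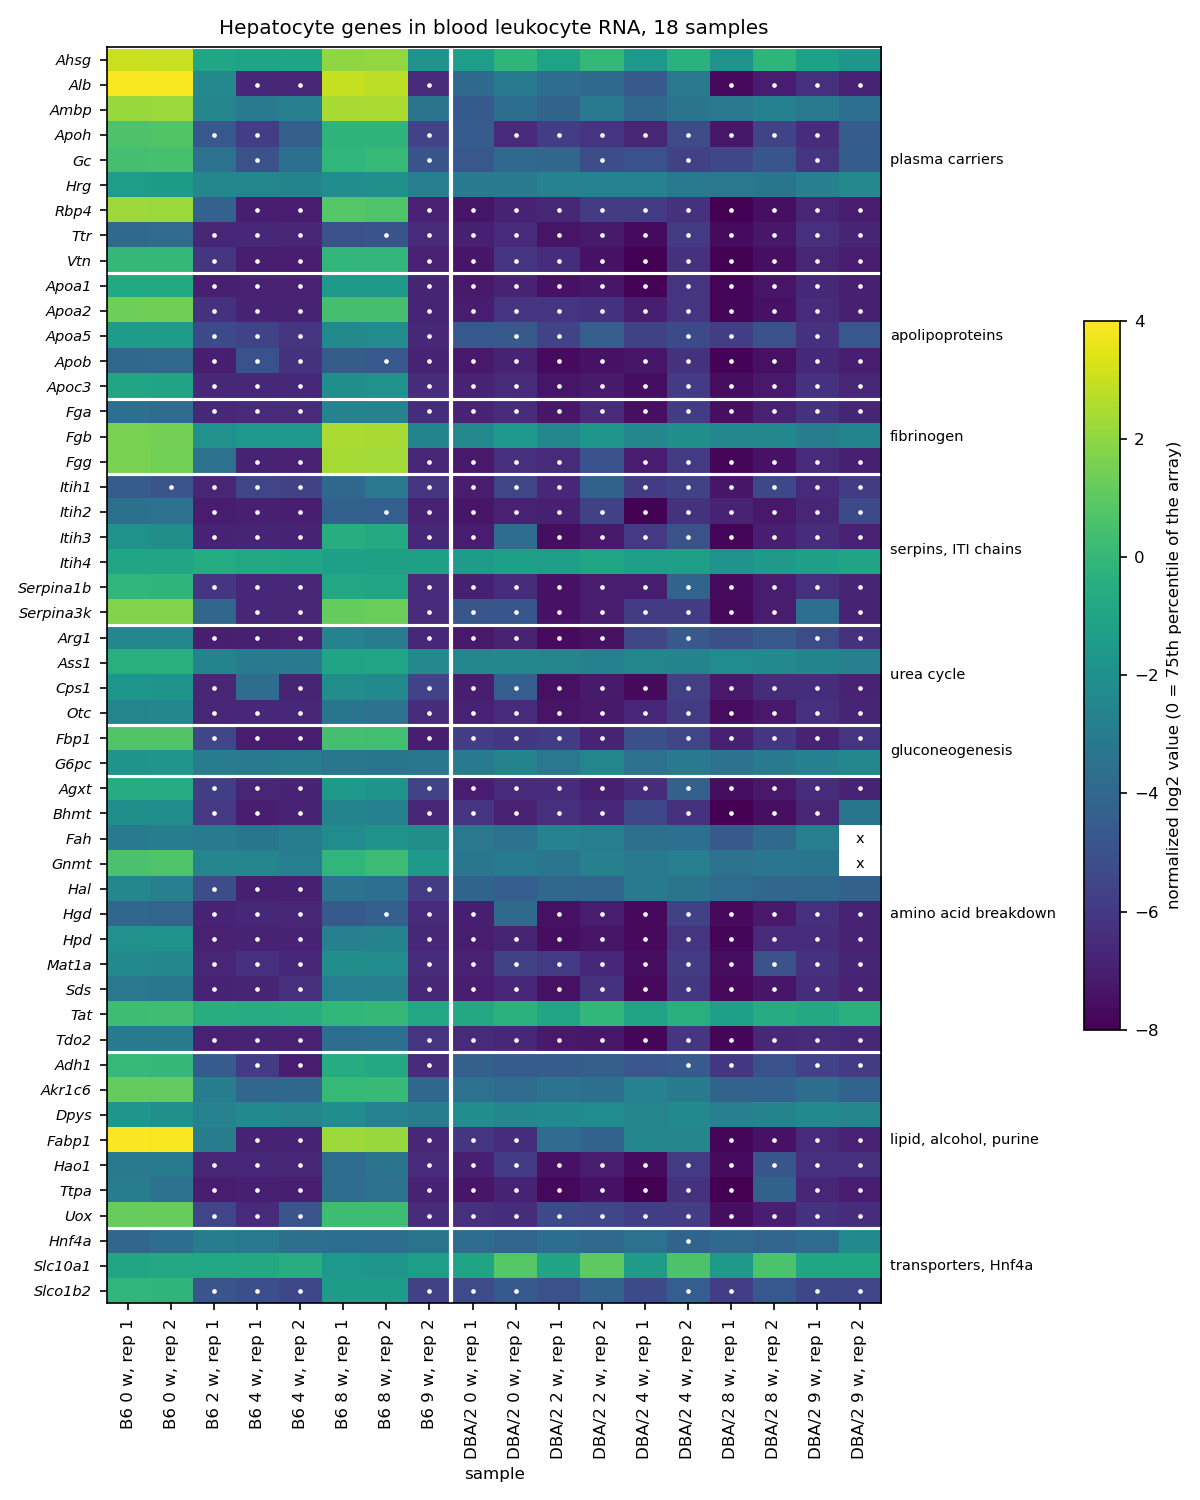
Normalized log2 value (color, 0 is the 75th percentile of the array) of the main probe of 50 hepatocyte genes (rows, in role groups) in 18 samples (columns). White dots mark probes that no array of the sample measured well above background and x marks values left out as outliers. The B6 columns at 0 w and 8 w are bright over nearly all rows, and rows such as Itih4, Tat and Slc10a1 are bright in all columns.

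**Figure D2:**
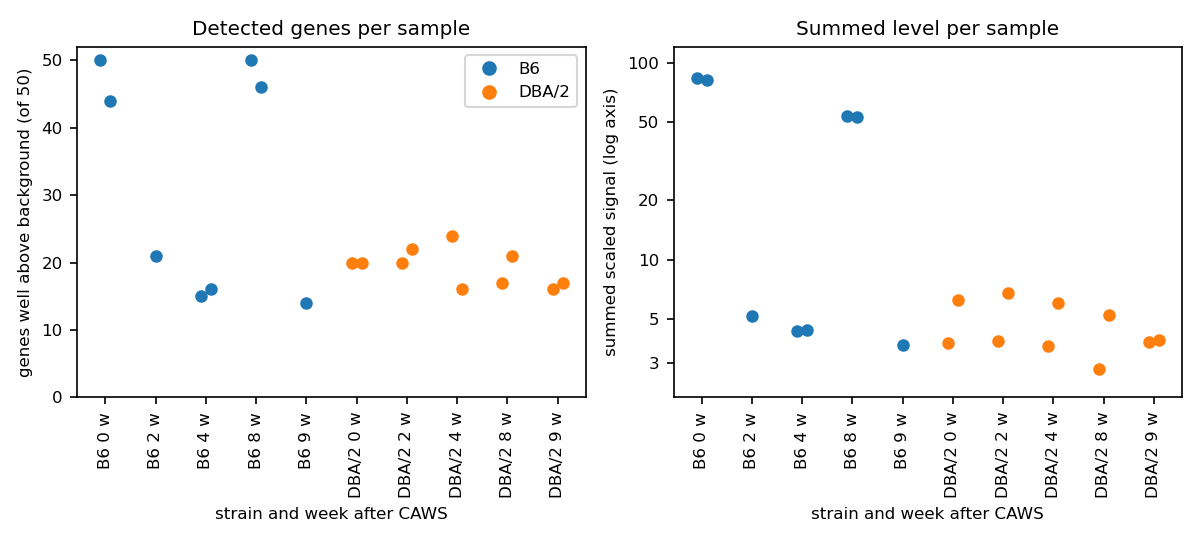
Number of hepatocyte genes with the main probe well above background on every array of a sample (left) and sum of their scaled signals (right, log axis), with 1 point per sample in the 10 groups of strain and week. B6 samples at 0 w and 8 w lie at 44 to 50 genes and at sums of 52.9 to 83.2, and all other samples lie at 14 to 24 genes and sums of 2.77 to 6.80.

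Among the plasma carriers, Alb, which codes for albumin, stood at 3.90 and 3.87 in B6 mice at 0 w, at -2.36 at 2 w and at 2.95 and 2.79 at 8 w, and it was not detected at 4 w and 9 w. In DBA/2 mice Alb was detected in all 6 samples from 0 w to 4 w, at -4.64 to -3.06, and in none of the 4 samples at 8 w and 9 w. Albumin was therefore detected in both strains at 0 w and 2 w, at 4 w only in DBA/2 mice and at 8 w only in B6 mice. Rbp4, the carrier of retinol, stood at 2.23 and 2.18 in B6 mice at 0 w, at -4.24 at 2 w and at 0.83 and 0.72 at 8 w, and was detected in no other sample. Ahsg, which codes for fetuin-A, was detected on all arrays, at 3.05 and 3.00 in B6 mice at 0 w, at 2.02 and 2.04 at 8 w and at -1.87 to 0.00 in all other samples. Ambp, the precursor of alpha-1-microglobulin and bikunin, was likewise detected on all arrays. It stood at 2.13 and 2.18 at 0 w and 2.41 and 2.48 at 8 w in B6 mice and between -4.61 and -2.55 elsewhere. Hrg, the histidine-rich glycoprotein, had the narrowest range of the carriers detected everywhere, from -1.30 and -1.46 in B6 mice at 0 w to -3.33 in DBA/2 mice at 8 w. The other carriers, Apoh, Gc, Ttr and Vtn, were highest in the B6 samples at 0 w and 8 w.

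Among the apolipoproteins, Apoa2, a structural protein of high-density lipoprotein, stood at 1.37 and 1.41 in B6 mice at 0 w, had 0.48 in both samples at 8 w, and was detected nowhere else. Apoa5, a regulator of plasma triglyceride, stood at -1.40 in both samples at 0 w and -2.30 and -2.21 at 8 w, and it was detected at -5.61 to -4.37 in 5 of the 10 DBA/2 samples, 1 at each week. Apoa1, Apob and Apoc3 were detected only in B6 mice at 0 w and 8 w.

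Fgg, 1 of the 3 chains of fibrinogen, the precursor of the fibrin clot, stood at 1.58 and 1.45 in B6 mice at 0 w, at -3.53 at 2 w and at 2.37 and 2.35 at 8 w, and of the other samples it was detected only in DBA/2 2 w replicate 2, at -4.97. Fgb was detected on all arrays, at 1.59 and 1.51 at 0 w and 2.48 and 2.43 at 8 w in B6 mice and at -2.95 to -1.58 in all other samples. Fga was detected only in B6 mice at 0 w and 8 w. Both B6 samples at 8 w had higher values than both at 0 w for all 3 chains, and lower ones for Alb, Rbp4, Ahsg and Apoa2.

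Serpina3k, a serine protease inhibitor, stood at 1.75 in both B6 samples at 0 w, at -4.06 at 2 w and at 1.17 and 1.31 at 8 w, and was otherwise detected only in DBA/2 9 w replicate 1, at -3.60. Itih4, a heavy chain of the inter-alpha-trypsin inhibitor family, did not follow this pattern. It lay between -1.85 and -0.62 in all 18 samples, with -0.88 and -0.89 in B6 mice at 0 w and -0.81 and -0.96 at 4 w. Itih2 and Itih3 were highest in the B6 samples at 0 w and 8 w, while Itih1 was detected in 1 of the 2 B6 samples at 0 w, in both at 8 w and in DBA/2 2 w replicate 2.

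Of the urea cycle, Ass1, argininosuccinate synthase, was detected on all arrays, at -0.42 and -0.43 at 0 w in B6 mice, -1.01 and -0.92 at 8 w and -3.08 to -2.23 in all other samples. Arg1, arginase, stood at -2.47 and -2.45 in B6 mice at 0 w and -2.68 and -2.96 at 8 w and was not detected in B6 mice at other weeks. In DBA/2 mice it was detected in 1 of 2 samples at 4 w, at -5.43, and in both at 8 w, at -5.08 and -4.70. Otc was detected only in B6 mice at 0 w and 8 w, and Cps1 there and in B6 4 w replicate 1. G6pc, the last enzyme of gluconeogenesis, was detected on all arrays, at -1.77 and -1.69 in B6 mice at 0 w, but at -3.50 to -2.41 in all other samples, the B6 samples at 8 w among them, at -3.31 and -3.33. G6pc thus lay at 8 w where it lay at the other weeks, while Fbp1, the other gluconeogenic enzyme measured, stood at 0.73 in both samples at 0 w and 0.47 and 0.37 at 8 w.

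Of the enzymes of amino acid breakdown, Tat, tyrosine aminotransferase, was detected on all arrays within a narrow range, from -1.23 to 0.31, and was highest in B6 mice at 0 w. Hal, which breaks down histidine, was detected in B6 mice only at 0 w, at -2.47 and -2.77, and at 8 w, at -3.41 and -3.62, but in all 10 DBA/2 samples, at -4.41 to -3.07. Fah, the last enzyme of tyrosine breakdown, lay between -4.64 and -1.86 in the 17 samples in which it was measured, and its value in DBA/2 9 w replicate 2 was left out as an outlier. Agxt, Hpd, Mat1a, Sds and Tdo2 were detected only in B6 mice at 0 w and 8 w.

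Of the remaining enzymes and binding proteins, Fabp1, the liver fatty acid binding protein, stood at 3.94 and 3.89 in B6 mice at 0 w, at -2.91 at 2 w and at 2.25 and 2.14 at 8 w, and was not detected at 4 w and 9 w. In DBA/2 mice Fabp1 was not detected at 0 w, was detected at -3.82 and -4.23 at 2 w and at -2.51 and -2.56 at 4 w, and was again not detected at 8 w and 9 w. Adh1, alcohol dehydrogenase, stood at 0.02 and 0.00 in B6 mice at 0 w, -4.52 at 2 w and -0.55 and -0.77 at 8 w, and at -5.00 to -4.34 in the 6 DBA/2 samples in which it was detected. Akr1c6, a hydroxysteroid dehydrogenase, was detected on all arrays, at 1.15 and 1.12 at 0 w in B6 mice, 0.06 and 0.12 at 8 w, and -4.23 to -2.67 in all other samples. Dpys, dihydropyrimidinase, lay between -2.93 and -1.67 in all 18 samples.

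Slc10a1, the bile acid uptake transporter of hepatocytes, was detected on all arrays without the B6 pattern, at -0.88 and -0.76 in B6 mice at 0 w and -0.74 and -0.53 at 4 w. Its values in DBA/2 mice split by slide. Replicate 1 at weeks 0, 2, 4 and 8 lay between -1.50 and -0.98 and replicate 2, on another slide, between 0.62 and 1.04, a difference of 1.80 to 2.12 at each week. Of the other genes detected on all arrays, Ahsg had the largest mean difference between these slides, 1.08 to 1.67 by week. Some genes lay the other way, such as Akr1c6 at -0.32 to -0.03. Hnf4a, the transcription factor of hepatocytes, lay between -4.13 and -2.26 in all samples.

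**Figure D3:**
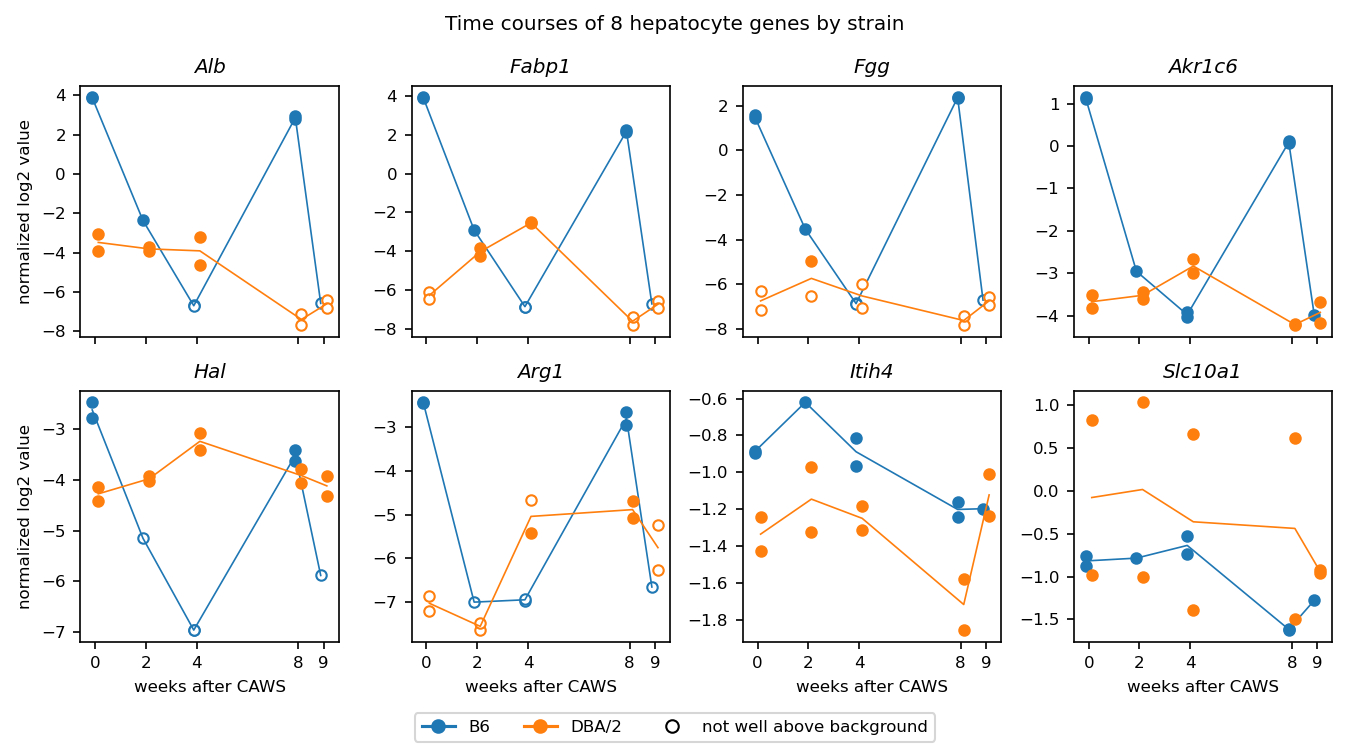
Normalized log2 value of 8 hepatocyte genes against weeks after CAWS, with 1 point per sample, open where the probe was not well above background, and lines through the group means of B6 (blue) and DBA/2 (orange). Each panel has its own vertical scale. Alb, Fabp1, Fgg and Akr1c6 are high in B6 mice at 0 w and 8 w, Fabp1, Hal and Arg1 are above their 0 w level at 4 w in DBA/2 samples, and Itih4 and Slc10a1 do not show the B6 pattern.

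The fall after 0 w in B6 mice was tested first. At 4 w, 41 of the 50 genes were lower than at 0 w and none was higher. Fabp1 was at least 720.4-fold lower (log2 difference -10.77 ± 0.19 SE, n = 2 and 2, limma adjusted p = 3.5e-09), Alb at least 707-fold (-10.59 ± 0.43), Rbp4 at least 220.4-fold (-9.21 ± 0.28), Serpina3k at least 160.5-fold (-8.43 ± 0.77) and Fgg at least 137-fold (-8.39 ± 0.50). The fitted differences of genes not detected at 4 w are no measured sizes, and the bounds stand for them. Their SEs and p-values rest in part on values that were not detected. Such a bound sets the mean at 0 w against, on each dim array, the higher of its lowest detected signal and the gene's own. Apoa2 was at least 125-fold lower. By role, all 9 plasma carriers, all 5 apolipoproteins, all 3 fibrinogen chains, both measured gluconeogenic enzymes, 4 of 6 serpins and inter-alpha-trypsin inhibitor chains, 3 of 4 urea cycle enzymes, 8 of 11 enzymes of amino acid breakdown, 6 of 7 other enzymes and binding proteins and 1 of 3 transporters and factors fell. Cps1, Dpys, Fah, Hgd, Hnf4a, Itih1, Itih4, Slc10a1 and Tat were not called.

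Many of these genes passed the filter on dim probes only through B6 mice at 0 w and 8 w, so that their calls follow from that filter, and the count is a description. The 11 genes detected on all arrays are free of this. Of these, 7 fell at 4 w: Akr1c6 (-5.11 ± 0.17, 34.6-fold), Ambp (-5.06 ± 0.40, 33.4-fold), Ahsg (-4.04 ± 0.62, 16.4-fold), Fgb (-3.15 ± 0.30), Ass1 (-2.62 ± 0.10, 6.17-fold), G6pc (-1.25 ± 0.26) and Hrg (-1.19 ± 0.16). The other 4 were Tat (-0.85 ± 0.31, limma adjusted p = 0.11, or 0.022 with the replicate numbers as a block), Dpys (-0.57 ± 0.21, adjusted p = 0.10), Itih4 (0.00 ± 0.15) and Slc10a1 (0.18 ± 0.93). The call of G6pc was lost without any 1 of the 4 samples compared, at -1.32 to -1.17. With each B6 pair counted as 1 sample, the calls of Ahsg, Hrg and G6pc were lost. The falls of these 7 genes were also seen within a slide. From 0 w to 4 w the log2 change on slides 3 and 1 was -5.18 and -5.06 for Akr1c6, and -5.13 and -5.00 for Ambp. It was -4.09 and -4.01 for Ahsg, -3.18 and -3.14 for Fgb, and -2.66 and -2.63 for Ass1. For G6pc it was -1.29 and -1.16, and for Hrg -1.22 and -1.20.

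Counted over probes, 50 of 67 member probes were lower at 4 w and 0 higher, where 9.58% of all probes tested were lower and 6% higher. At 2 w, 49 member probes were lower and 0 higher, with backgrounds of 7.68% and 5.26%, and at 9 w 49 were lower and 0 higher, with backgrounds of 3.81% and 5.48%. These counts hold genes that passed the filter only through B6 mice at 0 w and 8 w, and of the 11 genes detected on all arrays 7 fell at 2 w and 8 at 9 w. With each B6 pair counted as 1 sample, the counts were 28 at 4 w, 31 at 2 w and 35 at 9 w. The 4 comparisons with 0 w share the 2 samples at 0 w, and those with 2 w and 9 w rest on 1 sample, assumed to vary like the other groups. At 2 w the log2 difference from 0 w was -6.25 ± 0.53 for Alb, -6.82 ± 0.23 for Fabp1, -6.44 ± 0.34 for Rbp4, -5.80 ± 0.94 for Serpina3k and -5.05 ± 0.62 for Fgg, all of them detected at both weeks, while Apoa2 was at least 159-fold lower. The call of Serpina3k at 2 w was lost with B6 pairs counted as 1 sample. At 9 w Fabp1 was at least 1173-fold lower than at 0 w and Alb at least 1152-fold.

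**Figure D4:**
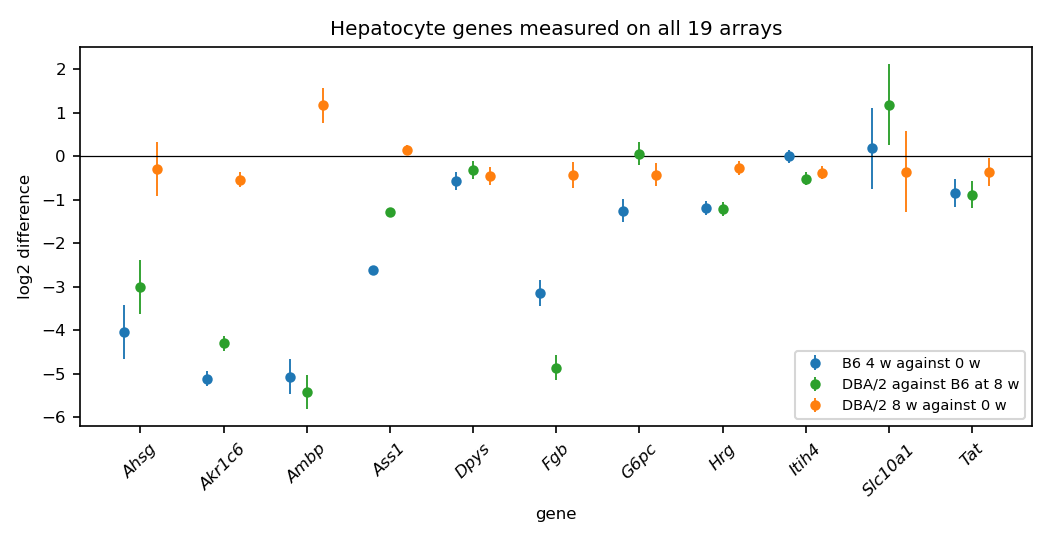
Log2 difference with its SE for the 11 hepatocyte genes well above background on all 19 arrays, in 3 comparisons. Ahsg, Akr1c6, Ambp, Ass1 and Fgb lie at -5.11 to -2.62 for B6 mice at 4 w against 0 w, at -5.42 to -1.28 for DBA/2 against B6 mice at 8 w and at -0.54 to 1.17 for DBA/2 mice at 8 w against 0 w, and Itih4, Dpys and Tat lie between -0.88 and 0.00 in all 3.

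The 2 weeks at which B6 blood held the hepatocyte genes were then compared with each other. At 8 w, 8 genes were lower than at 0 w and 1 was higher. The log2 difference was -1.72 ± 0.19 for Fabp1 (n = 2 and 2, limma adjusted p = 2.0e-04), -1.59 ± 0.26 for G6pc (adjusted p = 0.0023), -1.43 ± 0.28 for Rbp4 (adjusted p = 0.0059) and -1.04 ± 0.17 for Akr1c6 (adjusted p = 0.0023). It was -0.91 for Otc, -0.90 for Hal, -0.67 for Hrg and -0.54 for Ass1, and Fah rose by 0.96 ± 0.25 (adjusted p = 0.028). Alb and Apoa2 had differences of -1.01 ± 0.43 (adjusted p = 0.13) and -0.90 ± 0.32 (adjusted p = 0.078). The 3 fibrinogen chains had positive differences, Fga 1.03 ± 0.46, Fgb 0.90 ± 0.30 and Fgg 0.84 ± 0.50, and so had Itih3 at 1.37 ± 0.83 and Ambp at 0.29 ± 0.40, none of them called. Fgb was called with the replicate numbers as a block (limma adjusted p = 0.028). Fga, Itih3, Otc and Fbp1 were singled out after their values were seen.

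Over probes, 10 of 67 member probes were lower at 8 w than at 0 w and 1 was higher, against 10.2% and 11% of all probes. The share of lower probes, 14.9% of all 67 and larger over the 60 tested, is not far above the background. That of higher probes (1.49%) is below it. With each B6 pair counted as 1 sample, 1 member probe was called, that of Fabp1. Leaving out B6 0 w replicate 1 left 6 member probes and leaving out B6 8 w replicate 2 left 7, while leaving out either DBA/2 sample at 4 w gave 18. The calls of Fah and Otc were lost without any 1 of the 4 samples, at 0.79 to 1.12 for Fah and -0.97 to -0.85 for Otc. The call of Hal was lost without B6 0 w replicate 1 (-0.75) or B6 8 w replicate 2 (-0.79), and that of Hrg without B6 0 w replicate 1 or B6 8 w replicate 1 (-0.59 each). In the deposited values without scaling, all probes shifted by a median of 0.98 between these weeks, so the direction of differences below that size holds relative to the 75th percentile of the array only.

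**Figure D5:**
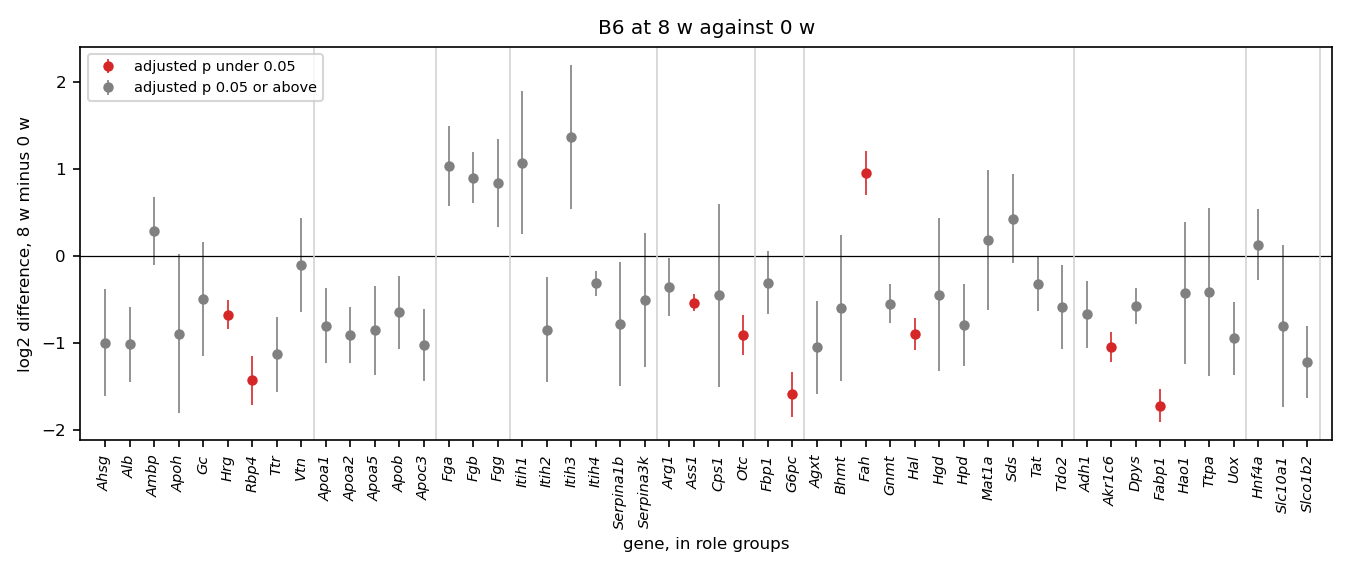
Log2 difference between B6 mice at 8 w and 0 w with its SE for the main probe of 50 hepatocyte genes, in role groups divided by grey lines, red where the adjusted p was under 0.05. The 3 fibrinogen chains lie between 0.84 and 1.03, above 0, and all 5 apolipoproteins lie below 0.

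Few of the genes were called changed in DBA/2 mice by the main model, which has no block for slide or replicate number. At 2 w Fabp1 rose, at least 3.92-fold (log2 difference 2.25 ± 0.19, n = 2 and 2, limma adjusted p = 1.4e-04), and it was the 1 member probe that was higher (0 were lower), where 7.87% of all probes were higher and 7.82% lower. At 4 w Fabp1 was at least 11.0-fold higher than at 0 w (3.74 ± 0.19, adjusted p = 3.1e-06). Hal rose by 1.04 ± 0.18 (limma adjusted p = 0.0048) and Akr1c6 by 0.84 ± 0.17 (limma adjusted p = 0.010). Arg1 was also called (1.98 ± 0.33, limma adjusted p = 0.0039). Arg1 was detected in 1 of 2 samples at 4 w and was not detected at 0 w, so its fitted difference is no measured size and no bound is given. The call of Akr1c6 was lost without DBA/2 4 w replicate 1 (0.68) or DBA/2 0 w replicate 2 (0.69). Rbp4 also passed the test at 4 w, but it was detected in neither group. At 4 w 5 member probes were higher and 0 lower, against 7.49% and 7.3% of all probes, and without DBA/2 0 w replicate 2 there were 3.

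At 8 w Alb fell at least 8.12-fold in DBA/2 mice (-3.92 ± 0.43, adjusted p = 1.8e-04) and at 9 w at least 3.40-fold (-3.12 ± 0.43, adjusted p = 6.8e-04). All 9 w differences also hold a difference between slides. Arg1 was above its 0 w level at 8 w, at least 2.16-fold (2.13 ± 0.33, limma adjusted p = 0.0015). With a floor of 10 on the scaled signals the calls of Arg1 were lost, at 0.28 for 4 w (limma adjusted p = 0.36) and 0.34 for 8 w (limma adjusted p = 0.22). Within the slides, Alb fell by 3.79 on slide 2 and fell by 4.05 on slide 5 at 8 w, and Arg1 was higher by 2.11 and 2.15. Alb was not detected at 8 w and Arg1 was not detected at 0 w, so these values within slides are no measured sizes either. The falls of Fah (-0.86 ± 0.25, adjusted p = 0.039) and Akr1c6 (-0.54 ± 0.17, adjusted p = 0.048) at 8 w, and those of Adh1 (at least 1.77-fold, -1.35 ± 0.39, adjusted p = 0.029) and Ass1 (-0.30 ± 0.10, adjusted p = 0.047) at 9 w, were close to the threshold. Leaving out 1 sample ended the call in 9 of the 18 cases for Fah (-0.99 to -0.46), 12 for Akr1c6 (-0.69 to -0.39) and 13 for Ass1 (-0.32 to -0.20), and for Adh1 it did so with any 1 of the 4 samples compared (-1.51 to -1.18). At 8 w 1 member probe was higher and 6 lower, of which 3 were detected in neither group, against 9.97% and 14% of all probes. At 9 w 1 was higher and 4 lower, of which 2 in all were detected in neither group, against 13.3% and 14.4%. The number at 8 w was 11 with the replicate numbers as a block, 15 with the slide as a fixed block and 4 without either B6 0 w sample. That at 9 w was 2 without DBA/2 0 w replicate 2. In the main model the shares at 8 w and 9 w lie below the background. With the normexp background correction none of the changes of member probes at weeks 2, 4 and 8 was called, and at 9 w the differences of Alb, Ass1 and Adh1 turned sign. The counts with each B6 pair as 1 sample were 2, 3, 5 and 2 at weeks 2, 4, 8 and 9.

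The strains were compared at the weeks with 2 samples of each. At 0 w DBA/2 mice were lower than B6 mice in 43 genes and higher in none. Fabp1 was at least 962-fold lower (-10.19 ± 0.19, n = 2 and 2, limma adjusted p = 5.8e-09), Rbp4 at least 294-fold, Fgg at least 183-fold and Apoa2 at least 167-fold, and Alb, detected in both strains, differed by -7.37 ± 0.43. At 8 w, 43 genes were again lower and none higher. Alb was at least 664-fold lower (-10.27 ± 0.43), Fgg at least 465-fold, Fabp1 at least 414-fold, Serpina3k at least 214-fold and Rbp4 at least 155-fold, and Fgb and Arg1, detected in both strains, differed by -4.86 ± 0.30 and -2.07 ± 0.33. Over probes, 52 of 67 were lower at 0 w and 0 higher, against 15.4% and 17.3% of all probes, and 52 were lower at 8 w and 0 higher, against 15% and 10.4%. These counts hold the genes that passed the filter only through B6 mice at 0 w and 8 w, whose calls follow from it. Of the 11 genes detected on all arrays 8 were lower at 0 w and 7 at 8 w. With B6 pairs counted as 1 sample the counts were 43 and 44.

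At 4 w the median difference over the 50 genes was -0.11, and 7 of the 11 genes detected on all arrays and 21 of the other 39 were below 0. Of the member probes 10 were higher in DBA/2 mice and 0 lower, against 19% and 13.1% of all probes, which is a smaller share than the background. Fabp1 was at least 8.26-fold higher (4.32 ± 0.19, adjusted p = 2.6e-07), Hal at least 5.07-fold (3.72 ± 0.18) and Alb at least 3.18-fold (2.79 ± 0.43). Adh1, Arg1 and Fbp1 were also called, with fitted differences of 1.83 ± 0.39, 1.90 ± 0.33 and 1.81 ± 0.36, but each was detected in 1 of the 2 DBA/2 samples and in no B6 sample at 4 w. Akr1c6 and Ass1, detected in all samples, were higher by 1.15 ± 0.17 and 0.49 ± 0.10. With B6 pairs counted as 1 sample 7 member probes were called, and Ass1 and Fbp1 were not among the calls. With a floor of 10 the calls of Arg1 and Fbp1 were lost. With the normexp background correction 0 were called, and the differences of Alb, Akr1c6, Arg1, Adh1, Ass1 and Fbp1 turned sign.

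The change from 0 w was also compared between the strains directly, with the B6 change subtracted from the DBA/2 change. For 4 w this difference was positive for 43 of 67 member probes and negative for 0, against 7.26% and 4.45% of all probes. This count too holds genes that passed the filter only through B6 mice at 0 w and 8 w, and of the 11 genes detected on all arrays 6 were called. For 8 w it was positive for 4 and negative for 2, against 7.16% and 10.4%. With B6 pairs counted as 1 sample the numbers were 26 and 0. For 8 w, Alb (-2.91 ± 0.61, limma adjusted p = 0.010) and Fah (-1.82 ± 0.36) were negative and Arg1 (2.49 ± 0.47), Hal (1.26 ± 0.26) and Ass1 (0.69 ± 0.14) positive. Alb in DBA/2 mice at 8 w and Arg1 in DBA/2 mice at 0 w were not detected, so their values are fitted and no measured sizes.

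A second list of 54 hepatocyte genes, not among the members, was measured in the same way. It too was chosen with earlier results of these data known. Of 53 with a probe, 43 were detected on every array of the B6 group at 0 w and 42 likewise at 8 w, against 18 to 21 in every other group. Their summed scaled signal separated the groups less, at 28.1 to 28.6 in B6 mice at 0 w, 37.1 to 39.8 at 8 w and 9.48 to 25.1 elsewhere, highest of these in DBA/2 mice at 8 w. At 4 w, 34 of the 50 tested were lower than at 0 w in B6 mice and 0 higher, against 9.58% and 6% of all probes. This count holds 15 genes detected on B6 arrays of 0 w or 8 w alone, such as F2, which codes for prothrombin and stood at 0.55 and 0.41 at 0 w. At 8 w against 0 w, 2 of the 50 were higher and 5 lower, against 11% and 10.2% of all probes, which is no larger share than the background. Hpx, hemopexin, rose by 1.63 and Hp, haptoglobin, by 2.07, while Igfbp1 fell by 2.38. Hp was detected on all arrays, also rose in DBA/2 mice at every week, and is known to be made by neutrophils as well. In DBA/2 samples this list had 1 gene higher and 1 lower at 2 w, 1 and 3 at 4 w, 3 and 3 at 8 w and 4 and 2 at 9 w, each a share at or below the backgrounds given above.

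Markers of other cells moved in several ways, some of them with the hepatocyte genes. In B6 mice at 4 w against 0 w, 7 of 8 markers of monocytes and macrophages, 5 of 5 of NK cells, 4 of 6 tested of Kupffer and splenic macrophages, 3 of 7 of T cells and 3 of 6 of B cells were lower and none higher, while 8 of 8 tested of neutrophils, 5 of 6 of platelets and 3 of 6 of erythroid cells were higher and none lower. At 8 w against 0 w, 5 of the 8 monocyte and macrophage markers, 8 of 8 tested of neutrophils and 4 of 6 of platelets were higher and 0 lower. In the same comparison 4 of 5 NK cell markers, 5 of 6 of erythroid cells and 1 of 7 of T cells were lower and 0 higher. No B cell marker was called, and 1 of 6 Kupffer and splenic macrophage markers was higher and 1 lower. Of all probes tested, 9.58% were lower and 6% higher at 4 w, and 10.2% were lower and 11% higher at 8 w. The Kupffer and splenic macrophage list had a summed scaled signal of 0.914 to 0.978 in B6 mice at 0 w, 0.536 at 2 w, 0.193 to 0.281 at 4 w, 0.758 to 0.811 at 8 w and 0.764 at 9 w, and of 0.349 to 1.09 in DBA/2 mice. From 0 w to 4 w and 8 w it thus fell and returned as the hepatocyte genes did, while at 9 w it stood near its level of 8 w. Its Kupffer cell marker Clec4f was detected only in B6 mice at 0 w and 8 w, at -3.94 and -3.51 and at -4.11 in 1 of the 2 samples. The 9 neutrophil markers summed to 57.2 to 57.3 in B6 mice at 0 w and 430 to 431 at 8 w. The 5 markers of liver endothelium summed to 1.53 to 1.65 at 0 w, 1.85 to 1.93 at 4 w and 2.22 to 2.25 at 8 w in B6 mice. Against 0 w none of these 5 was called at 4 w, and at 8 w 1 was higher and 1 lower.

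Markers of other organs were mixed too. Of 6 intestinal markers Vil1, Lct, Si, Apoa4 and Cdh17 were detected on no array. The remaining one, Fabp2, was detected on all B6 arrays of 0 w, at -3.11 and -3.28, on 1 of the 2 arrays of 8 w and in no B6 sample of the other weeks, as many of the hepatocyte genes were, and also on 2 DBA/2 arrays. Of 6 kidney markers Umod, Slc12a1 and Slc34a1 were detected on no array, while Aqp2 was detected on all, at 4.33 to 5.97. Of 5 bile duct markers Krt19 and Epcam were detected on no array, while Krt7 was detected on 16 arrays and Spp1 on 14, and both were higher in DBA/2 mice at 8 w than at 0 w. Of 6 stellate cell markers Des and Pdgfrb were detected on no array. The part of any of these cells in the hepatocyte signal was not tested.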

How the data were processed

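RNA of blood leukocytes was labelled with Cy3 and hybridized to whole mouse genome arrays by the authors. The deposited intensities are the processed signals of Agilent Feature Extraction 9.5.3.1, per the file headers, with the background and spatial trend removed within an array and no scaling between arrays. Other deposited columns hold calls of 0 or 1 per spot (well above background, saturated, outlier), and a deposited table holds the same intensities averaged over the spots of a probe. Probe positions follow mm8.

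From these, log2 intensities were computed without outlier spots, averaged per probe and reduced by the 75th percentile of the array over 11550 probes well above background on all 19 arrays. The 2 arrays of B6 0 w replicate 2 were averaged, which left 18 samples. Probes well above background in at least 2 samples (22965 of 41174) went into a limma 3.58.1 model (R 4.3.3) with 1 mean per group and 8 residual degrees of freedom, and p-values were adjusted by Benjamini-Hochberg over all of them with a threshold of 0.05. The number of arrays limits the precision. The scripts were tested on simulated data. Python 3.11.15 was used for the summaries.

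Probes were named by accession (24375), by name (6301) or by synonym (2426) in the RefSeq table, and 8072 kept the name in the files. The genes and lists were chosen with earlier results of these data known. Values sample by sample are given for Alb and Apoa2, for the member with the highest mean in each role group, for members well above background on all arrays, for those that changed in DBA/2 mice, and for the 5 with the largest fall in B6 mice at 4 w and the 5 with the largest strain difference at 8 w. Alternatives concerned background correction, scaling, filter, floor, outliers, blocks, technical arrays, the samples fitted and each sample left out. The normexp background correction was run with an offset of 50. Counting each B6 pair as 1 sample was chosen after seeing the data. Pck1 was not analysed here.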

Additional observations from a re-analysis of the deposited data

Results flagged for a closer look

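The change from 0 w was compared between the strains by the interaction term of the limma model, with the B6 change subtracted from the DBA/2 change, and the results that passed an adjusted p of 0.05 are given here on the log2 scale. From 0 w to 4 w 43 member probes differed. Among the carriers and apolipoproteins the difference was 10.16 for Alb, 10.20 for Rbp4, 5.52 for Ambp, 3.77 for Ahsg, 1.28 for Hrg, 8.29 for Apoa2 and 3.68 for Apoa5. It was 8.61 for Fgg, 2.89 for Fgb and 7.30 for Serpina3k. Among the enzymes and binding proteins it was 14.51 for Fabp1, 6.46 for Arg1, 6.26 for Adh1, 5.95 for Akr1c6, 5.37 for Hal and 2.46 for Ass1. Ahsg, Akr1c6, Ambp, Ass1, Fgb and Hrg were detected on all arrays. The values of the other 10 genes are fitted through at least 1 group in which the gene was not detected in every sample and are no measured sizes. Apoa2 and Rbp4 passed the filter only through B6 mice at 0 w and 8 w, since Rbp4 was otherwise detected only in the B6 sample at 2 w. The call of Ahsg was lost when 1 of 6 samples was left out in turn, with 3.15 to 3.79, and also with each B6 pair counted as 1 sample. That setting called 26 member probes.

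From 0 w to 8 w 6 member probes differed. The difference was -2.91 for Alb and -1.82 for Fah, and 2.49 for Arg1, 1.26 for Hal and 0.69 for Ass1. Of these, Alb and Arg1 were not detected in 1 of the DBA/2 groups. With a floor of 10 on the scaled signals Arg1 was no longer called (0.70, limma adjusted p = 0.084). None of the 5 was called with each B6 pair counted as 1 sample. At weeks 0, 4 and 8 strain and slide cannot be told apart, while each strain's change was also measured within slides.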

How the results depend on the processing

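Of the 105 gene results, 15 turned sign under an alternative. Normexp background correction gave, for DBA/2 mice at 9 w against 0 w, 0.53 for Alb, 0.52 for Ass1 and 0.86 for Adh1, for DBA/2 against B6 mice at 4 w -0.24 for Alb, -0.28 for Ass1, -0.17 for Akr1c6, -0.54 for Arg1, -0.49 for Adh1 and -0.61 for Fbp1, and 0.16 for the strain difference of Alb at 8 w. The deposited table without scaling gave, for B6 mice at 8 w against 0 w, 0.48 for Ass1, 0.35 for Hrg, 0.13 for Hal and 0.11 for Otc, and -0.50 for the strain difference of Ass1 at 8 w. The cause was not tested.

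Counts of member probes called moved by over 1.5 times as follows, with DBA/2 and B6 weeks against 0 w. Under normexp they were 0 for DBA/2 mice at weeks 2, 4 and 8, B6 mice at 8 w, the strains at 4 w and the strain difference at 8 w, 13, 15 and 15 for B6 mice at weeks 2, 4 and 9, 29 and 20 for the strains at 0 w and 8 w, and 5 for the strain difference at 4 w. With the filter at 9 of 18 samples, which tests fewer probes, they were 3 and 3 for DBA/2 mice at 4 w and 9 w, 16, 15 and 16 for B6 mice at weeks 2, 4 and 9, 16 and 15 for the strains at 0 w and 8 w, and 14 for the strain difference at 4 w. Without a filter they were 4 and 2 for DBA/2 mice at 8 w and 9 w and 7 for B6 mice at 8 w. A floor of 10 gave 3, 4 and 3 for DBA/2 mice at weeks 4, 8 and 9, 34 for B6 mice at 8 w and 25 for the strain difference at 8 w. Quantile normalization gave 18 for B6 mice at 8 w and 14 for the strain difference at 8 w. The unscaled table gave 4, 11 and 9 for DBA/2 mice at weeks 2, 8 and 9, 20 for the strains at 4 w and 25 for the strain difference at 8 w. Each strain fitted alone gave 2, 3 and 2 for DBA/2 mice at weeks 2, 4 and 9 and 33 for B6 mice at 8 w. Counting every change of 2-fold or more, untested, gave 8, 9, 12 and 9 for DBA/2 mice at weeks 2, 4, 8 and 9 and 16 for the strain difference at 8 w. The slide as a fixed block gave 3 and 15 for DBA/2 mice at 2 w and 8 w. B6 pairs counted as 1 sample, chosen after seeing the data, gave 2, 3 and 2 for DBA/2 mice at weeks 2, 4 and 9, 31, 28 and 1 for B6 mice at weeks 2, 4 and 8, and 26 and 0 for the strain difference at 4 w and 8 w.

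Leaving out each sample in turn gave 1 to 4, 3 to 7, 4 to 9 and 2 to 7 member probes for DBA/2 mice at weeks 2, 4, 8 and 9, 42 to 50, 42 to 52, 6 to 18 and 39 to 52 for B6 mice, 47 to 53, 10 to 14 and 46 to 52 for the strains at weeks 0, 4 and 8, and 33 to 47 and 6 to 9 for the strain difference at 4 w and 8 w. Same-numbered samples correlated in their deviations from the group means with r of 0.017 to 0.409 (median 0.092) over 28 pairs of groups, 14 of them over 0.1 and all above 0. Not every pair was over 0.1, so the numbers were not taken as pairs, though replicate number and scan day coincide. In DBA/2 mice at weeks 0, 2, 4 and 8 replicate number and slide coincide too. The main model has no block, so there it leaves differences between these slides in the spread. The replicate block gave 11 for DBA/2 mice at 8 w and called Tat in B6 mice at 4 w (-0.85, limma adjusted p = 0.022) and Fgb in B6 mice at 8 w (0.90, limma adjusted p = 0.028). Signal over background limits the dim members, whose fitted differences are not measured sizes.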
